A study of Homo sapiens with 2 samples.

Results

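The 10 genes described here encode carrier proteins and protease inhibitors that hepatocytes secrete into plasma: ALB, TTR, RBP4, AHSG, AMBP, HPX, VTN, SERPINA1, GC and A2M. They were chosen by name, and every probe set that the platform annotation assigns to only 1 of them was used. This gave 19 probe sets of 8 genes, among 54613 probe sets and 19775 named genes in all. No probe set was paired with GC in that annotation, and the 2 that carry VTN also carry the neighbouring gene SEBOX, so that neither gene has a value of its own here.

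RNA came from Huh-7, an established human hepatoma cell line, and each condition was hybridised to 1 Affymetrix expression array. Both cultures grew in the same serum-supplemented DMEM. One culture received recombinant human IFN-alpha 2b at 100 U/mL for 6 hours after 24 hours of incubation, whereas the untreated culture only had its medium exchanged. When the untreated culture was harvested is not given in the sources used here. With 1 culture and 1 array on each side, no difference has a replicate check, no test was possible and no p-value is given.

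Plasma carriers are made in the rough endoplasmic reticulum of hepatocytes and released through the secretory pathway. Albumin is the main source of the oncotic pressure of blood and binds fatty acids, bilirubin and drugs, and most of the other carriers are dedicated to 1 or a few ligands such as retinol, thyroid hormone or haem. Their genes are among the most strongly transcribed in liver, under factors of the HNF1, HNF4, FOXA and C/EBP families. Type I interferon acts through another route and induces genes that carry the interferon-stimulated response element (ISRE).

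The carrier genes were among the brightest on both arrays. With the deposited scaling none of the 8 was 25% higher or 20% lower with interferon-alpha. Each gene was read on its brightest probe set over both arrays, and a gene counted if that probe set exceeded a floor, the median of all values (an intensity of 48.5), on at least 1 array. Only 2.12% of all counted genes were at least 25% higher and 1.89% at least 20% lower, so 0 of 8 is near those shares. The number at least 20% lower was 2 after centring on the hybridisation controls. It was 1 with probe sets ending in _x_at or _s_at left out. With the deposited scaling the log2 ratio of interferon-alpha over untreated ran from 0.10 (TTR and HPX) to 0.26 (ALB), with a median of 0.17 (1.13-fold) in the 8 genes, and this median was -0.0021 after quantile scaling, -0.0018 after lowess scaling and -0.25 after centring on the hybridisation controls. All 8 ratios were above 0 with the deposited scaling, as were 58.5% of the 13269 counted genes and all 424 genes with a mean intensity of 3000 or more, a range that holds 7 of the 8. The same arrays separated the interferon-induced genes by far larger ratios. ISG15 had intensities of 351.2 untreated and 8332 with interferon-alpha (23.7-fold), IFIT1 25.3 and 3125 (at least 64.5-fold) and MX1 44.0 and 818.2 (at least 16.9-fold), where "at least" is the ratio to the floor. Ratios given without another setting use the deposited scaling.

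Of 11 hepatocyte markers 10 had a named probe set, and all 10 were above the floor. The urea cycle gene CPS1 (51.1 untreated) was close to it and CYP3A4 had only 116.8. TF (10244), FGB (8422), APOA1 (6204) and APOB (5863) were far brighter, and ASGR1 had 502.3. The summed intensity of the hepatocyte markers was 54088 untreated and 62219 with interferon-alpha. ALB, TTR and SERPINA1 are among these markers and are also carriers described here. Markers of other liver cells also exceeded the floor, so exceeding it does not by itself show hepatocyte identity. All 7 markers of cholangiocytes and progenitors were above the floor (CD24 5709, PROM1 2034, EPCAM 1299 and KRT19 1061 untreated), with a summed intensity of 11786 untreated and 13539 with interferon-alpha, and SOX9 was 25% or more higher (1221 and 1659). Of 9 stellate cell and fibroblast markers 7 were counted, VIM (4303) and COL1A2 (544.3) being the brightest, while ACTA2 and LRAT stayed below the floor, and the sum was 5392 and 5791. Of 5 leukocyte markers LYZ, CD79A (104.9) and CD14 (91.1) were counted and PTPRC and CD3E were not, with sums of 2301 and 2476, most of it from LYZ. Of 8 endothelial markers PECAM1 (158.0), ENG and VWF were counted and CDH5, KDR and 3 others were not, with sums of 464.2 and 418.0, and VWF was 20% or more lower (log2 ratio -0.42). Beside these 2 calls, 2.12% of all counted genes were at least 25% higher and 1.89% at least 20% lower. The part of these cell type markers in the carrier ratios was not tested. The 3'/5' ratios of the GAPDH control probe sets were 0.988 and 0.975 and those of beta-actin 1.01 and 1.04. In bulk RNA, fewer expressing cells and less RNA per cell cannot be told apart.

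Upstream sequences are shown for 3 carriers that were bright on both arrays, beside 2 genes with interferon-induced signal. The windows shown are ones that hold matches. The window of AMBP, also bright, and the first of the SERPINA1 windows held no match to any motif searched. RefSeq windows of the GRCh38.p14 build, from 250 bases before to 50 after each annotated start, were matched for 7 of the 10 genes, in 10 windows. Each line below gives only the 250 bases before the start, or a stretch of 60 of them for the interferon-induced genes, 5' to 3' on the strand of the gene. Capitals mark matches, on either strand, to GTTAAT (core of the HNF1 site), TTGCNNAA (C/EBP), CAAAGTCCA (HNF4) or GAAANN followed directly by GAAA (ISRE). The ALB window is chr4:73404037-73404286 (plus strand), AHSG chr3:186612810-186613059 (plus), the second of the SERPINA1 starts chr14:94388603-94388852 (minus), ISG15 chr1:1013367-1013426 (plus) and IFIT1 chr10:89392493-89392552 (plus).
ALB: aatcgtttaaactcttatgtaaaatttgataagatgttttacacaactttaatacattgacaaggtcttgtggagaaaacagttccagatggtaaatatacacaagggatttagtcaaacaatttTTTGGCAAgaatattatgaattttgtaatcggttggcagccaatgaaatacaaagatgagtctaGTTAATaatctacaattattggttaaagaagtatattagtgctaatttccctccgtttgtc
AHSG: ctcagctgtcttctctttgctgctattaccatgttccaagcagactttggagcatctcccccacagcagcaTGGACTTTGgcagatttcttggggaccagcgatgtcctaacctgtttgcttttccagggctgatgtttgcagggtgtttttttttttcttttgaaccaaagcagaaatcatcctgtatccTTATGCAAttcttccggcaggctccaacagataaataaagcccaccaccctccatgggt
SERPINA1: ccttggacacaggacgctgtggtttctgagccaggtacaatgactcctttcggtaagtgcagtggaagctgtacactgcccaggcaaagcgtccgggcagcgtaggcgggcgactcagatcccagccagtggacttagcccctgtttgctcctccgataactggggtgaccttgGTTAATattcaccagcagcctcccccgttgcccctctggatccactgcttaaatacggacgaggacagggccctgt
ISG15: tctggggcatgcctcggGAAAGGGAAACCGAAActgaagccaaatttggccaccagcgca
IFIT1: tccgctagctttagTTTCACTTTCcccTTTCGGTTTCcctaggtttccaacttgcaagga

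The ISRE letters were found in 0 of the 7 matched carrier genes and in 3.57% of all 35116 windows of the same length. ISG15 held 2 matches, which overlap, and IFIT1 held 2 on the opposite strand. The HNF1 letters lay 61 to 56 bases before the ALB start and 76 to 71 bases before the SERPINA1 start, and 6.88% of all windows hold these letters. C/EBP letters occurred in 5 of the 7 carriers (ALB, AHSG, RBP4, HPX and VTN), against 10.5% of all windows, and the HNF4 letters in AHSG alone, against 0.384%. The FOXA letters TGTTTAC were in 0 of the 7 and in 3.42% of all windows, and TATAAA was in RBP4 alone, against 11.5%. The letters TTCNNNGAA, known as the gamma-activated site, were in 2 of the 7, RBP4 and VTN, against 7.66% of all windows. Some genes have several windows, and the shares are per window. A match is a description of letters and not a binding site, and its absence says only that these letters are not in the window.

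ALB, the most abundant plasma protein, had the brightest probe set of the group and the widest disagreement between probe sets. Its probe set 211298_s_at had intensities of 12212 untreated and 14588 with interferon-alpha, the 15th and the 7th brightest of all 54613 (1.19-fold). A second bright one, 1565228_s_at, read 8860 and 10465 (1.18-fold). These 2 differed by only 0.02 on the log2 scale. The dimmer probe set 214842_s_at read 241.3 and 256.4, a log2 ratio of 0.09. The remaining one, 214837_at, went the other way, from 151.2 to 117.0, a log2 ratio of -0.37 (1.29-fold lower). It was the only one of the 17 carrier probe sets with readings above the floor on each array that was at least 25% higher or 20% lower, and 1.61% of the 22682 probe sets of this kind were at least 20% lower. Among the 8200 of them with mean intensities from 100 to 300, 47 (0.573%) had a lower log2 ratio. The range of 0.63 over the ALB probe sets exceeded that of 99.2% of the 5912 genes that had more than 1 such probe set, whose median range was 0.14.

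The bright ALB probe sets stood high within their own intensity range. Of 31 genes with mean intensities of 10000 or more, only 1 had a higher log2 ratio than ALB at 0.26, and their median was 0.17. After lowess scaling, which removes the dependence of the ratio on brightness, ALB had 0.04, and after quantile scaling 0.08. It was the highest of the 8 carriers under both. AFP, the fetal relative of albumin encoded next to it and retained by many hepatomas, was nearly as bright at 11588 and 13478, with a log2 ratio of 0.22. AFM, the vitamin E carrier next in that gene cluster, was listed at 13.2 on both arrays, below the floor.

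**Figure D1:**
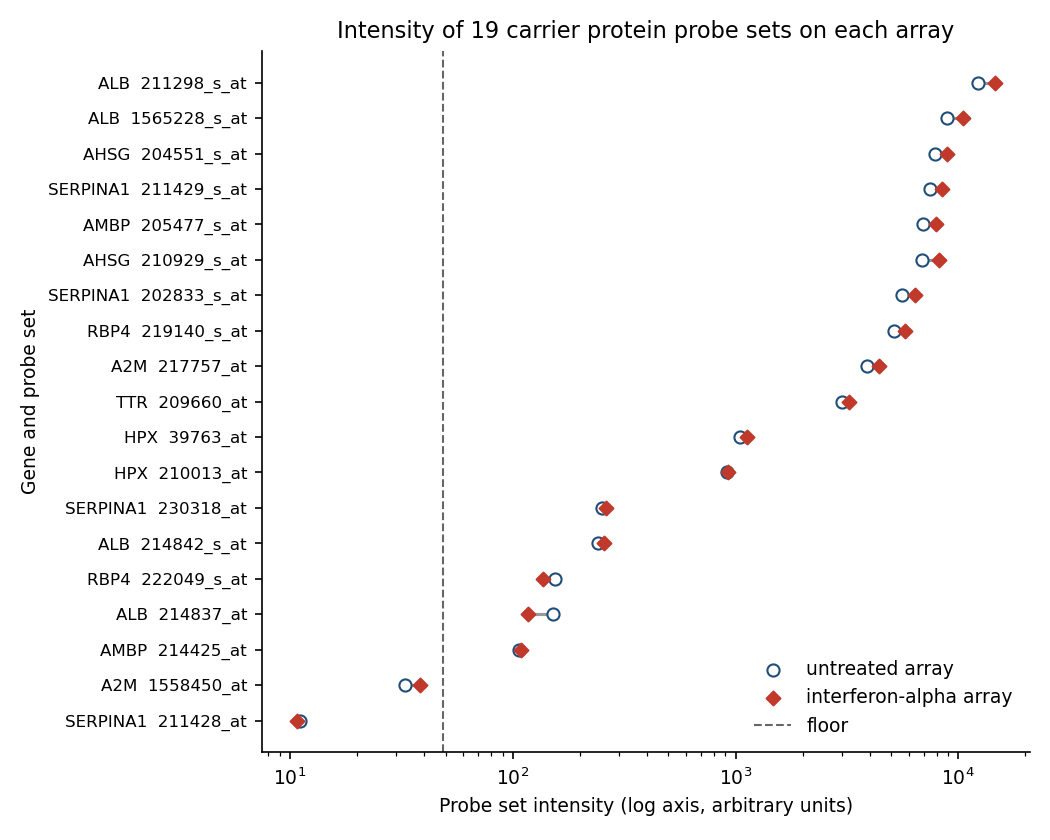
Intensity of each of the 19 carrier probe sets on the untreated array (open circles) and the interferon-alpha array (red diamonds), on a log axis in arbitrary units, with the floor of 48.5 as a dashed line. The symbols of a probe set lie close together next to the spread from 11.1 to 12212 between probe sets, and 2 probe sets are below the floor on both arrays.

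Retinol transport is represented by RBP4, which carries vitamin A from the liver, and TTR, the thyroxine carrier that holds RBP4 in a larger complex and so keeps it from renal filtration. RBP4 had intensities of 5130 and 5741 on 219140_s_at (log2 ratio 0.16), and 154.8 and 136.7 on the dimmer 222049_s_at (log2 ratio -0.18). Its probe sets therefore fell on opposite sides of 0, as did those of 44.0% of the 5912 genes. The median over both RBP4 probe sets was -0.01. TTR had a single probe set, 209660_at, with 2999.9 untreated and 3223 with interferon-alpha, a log2 ratio of 0.10. That was the lowest of the carriers, and 12.2% of the 393 genes with mean intensities from 3000 to 10000 lay below it. The difference between RBP4 and TTR was 0.06, less than the width of the middle 50% of that range (0.07).

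Among the other genes of vitamin A handling, STRA6, the RBP4 receptor, was close to the floor at 52.6 and 48.5. LRAT, which esterifies retinol for storage, was below it at 8.73 and 9.35, as was the retinoic acid hydroxylase gene CYP26A1 at 18.1 and 15.1. The retinal dehydrogenase gene ALDH1A1 was bright at 3146 and 3690, with the highest log2 ratio of this list, 0.23. In all, 7 of 9 named genes of the list were counted. Of these, 5 had ratios above 0 with the deposited scaling, against 58.5% of all counted genes, and 0 passed either threshold.

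AHSG (fetuin-A) binds calcium phosphate and keeps it from precipitating, and it was the second brightest carrier gene. Its 2 probe sets read 7896 and 8931 (log2 ratio 0.18) and 6886 and 8154 (0.24). The range of 0.07 between them was smaller than the median range of 0.14 over all genes with several probe sets, but larger than the median of 0.05 in the 445 genes with more than 1 probe set of mean intensity 1000 or more. Both lay inside the central 95% of their intensity range (0.05 to 0.29). The related cystatin-family genes were far dimmer. FETUB had 26.9 and 24.6 and HRG 45.5 and 43.1, under the floor each time, while the kininogen gene KNG1 had 1164 and 1160, a log2 ratio of -0.01.

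AMBP encodes a precursor that is cleaved into alpha-1-microglobulin, a haem-binding lipocalin, and bikunin, a Kunitz-type protease inhibitor. The bright probe set 205477_s_at had 6914 and 7946, a log2 ratio of 0.20, and the dimmer 214425_at had 106.8 and 109.4, a ratio of 0.03. Bikunin is joined to heavy chains to form the inter-alpha-inhibitors, and of these heavy chain genes ITIH2 was the bright one at 4954 and 5532 (0.16). ITIH1 (44.2 and 44.6) and ITIH3 (38.0 and 36.9) were below the floor. The related gene ITIH4 was just above the floor at 62.4 and 56.4. ITIH2 and AMBP differed by 0.04 in log2 ratio.

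HPX (hemopexin), which binds free haem, was the dimmest of the 8 carriers on the probe set used, though still in the top 8.15% of named genes. One probe set, 39763_at, read 1052 and 1130 (log2 ratio 0.10), and the other, 210013_at, read 918.5 and 924.9 (0.01). HP (haptoglobin), the carrier of free hemoglobin, had 447.3 and 485.2, a log2 ratio of 0.12 that differed from HPX by 0.01. The iron carrier gene TF was far brighter at 10244 and 11418 (0.16, with 3 probe sets from -0.06 to 0.24). The copper protein gene CP had 109.4 and 103.1 (-0.09, with 3 probe sets from -0.24 to 0.14).

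The protease inhibitors SERPINA1 (alpha-1-antitrypsin, which inhibits neutrophil elastase) and A2M (alpha-2-macroglobulin, which traps proteases of many classes) had nearly equal ratios. SERPINA1 had 7473 and 8407 on 211429_s_at (0.17), 5600 and 6391 on 202833_s_at (0.19) and 251.6 and 262.1 on 230318_at (0.06). The range over these 3 was 0.13, near the median range of 0.14 over all genes with several probe sets. A further SERPINA1 probe set, 211428_at, was below the floor at 11.1 and 10.7. A2M had 3896 and 4410 on 217757_at (0.18), and its other probe set, 1558450_at, was below the floor at 32.8 and 38.5. The A2M relatives were dim: PZP had 56.9 and 52.6 and CPAMD8 60.9 and 56.4, while CD109 and A2ML1 did not reach the floor.

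All 12 genes in the list of plasma protease inhibitors, which includes SERPINA1 and A2M, were counted. In this list 8 had ratios above 0 with the deposited scaling, against 58.5% of all counted genes, and 0 passed either threshold. Its highest value was that of SERPING1, the C1 inhibitor, with 1929 and 2325 (log2 ratio 0.27), and its lowest that of the kallistatin gene SERPINA4, with 98.9 and 79.4 (-0.32). The median was 0.09. Antithrombin (SERPINC1), at 245.1 and 220.3, had -0.15.

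The 2 probe sets annotated to both SEBOX and VTN gave similar ratios at very different brightness. VTN encodes the cell adhesion protein vitronectin, and SEBOX a homeobox factor. One probe set, 204534_at, read 3391 and 3670 (log2 ratio 0.11), and the other, 234256_at, read 53.6 and 59.1 (0.14). Neither value can be given to 1 of the genes, and they entered no count.

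**Figure D2:**
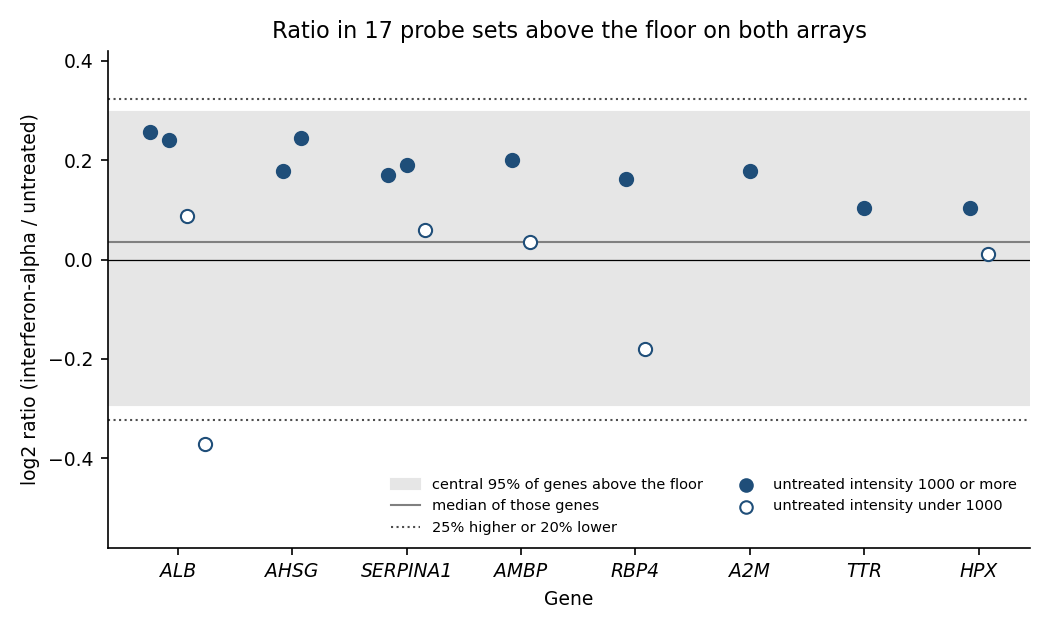
The log2 ratio of interferon-alpha over untreated, with the deposited scaling, for the 17 carrier probe sets that exceeded the floor on each array, by gene, with filled points for untreated intensities of 1000 or more. The 11 filled points lie between 0.10 and 0.26 and only 1 open point, of ALB, passes a dotted line (25% higher or 20% lower); the grey band is the central 95% of genes that exceeded the floor on each array, and the signs change with the scaling.

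In order of untreated intensity the 8 genes, on the probe set used for each, were ALB (12212), AHSG (7896), SERPINA1 (7473), AMBP (6914), RBP4 (5130), A2M (3896), TTR (2999.9) and HPX (1052). The order was the same on the interferon-alpha array. Among the 19 single probe sets, the only change of order was between AMBP 205477_s_at and AHSG 210929_s_at, at 6914 and 6886 untreated. No spread between replicates exists for any neighbours in this order, so none can be said to differ. Probe sets differ in how well they bind, so this is an order of intensities and not of transcript amounts. With these probe sets 5 of the 8 genes were in the brightest 1% of the 19775 named genes, and ALB was the 8th brightest untreated and the 5th with interferon-alpha.

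Brightness and ratio went together, within the carriers and in the arrays as a whole. The 11 carrier probe sets with untreated intensities of 1000 or more had log2 ratios from 0.10 to 0.26, with a median of 0.18. The 6 dimmer ones above the floor had ratios from -0.37 to 0.09, with a median of 0.02, and the ranges of these 17 did not overlap. Several of the 17 belong to the same gene, so they are not independent. Across all genes that exceeded the floor on each array the median ratio moved in the same way with the deposited scaling: it was -0.04 in 3091 genes below a mean intensity of 100, 0.01 in 4192 genes from 100 to 300, 0.05 in 3669 genes from 300 to 1000, 0.11 in 1366 genes from 1000 to 3000, 0.17 in 393 genes from 3000 to 10000 and 0.17 in 31 brighter genes. The ratios of single probe sets did overlap widely between these classes when all named genes were taken. Their central 95% ran from -0.26 to 0.35 at mean intensities from 100 to 300. It was -0.14 to 0.30 from 300 to 1000 and -0.05 to 0.29 from 1000 to 3000. All 8 carrier genes lay inside the central 95% of the probe sets of their own intensity range, and so did 16 of the 17 carrier probe sets above the floor.

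**Figure D3:**
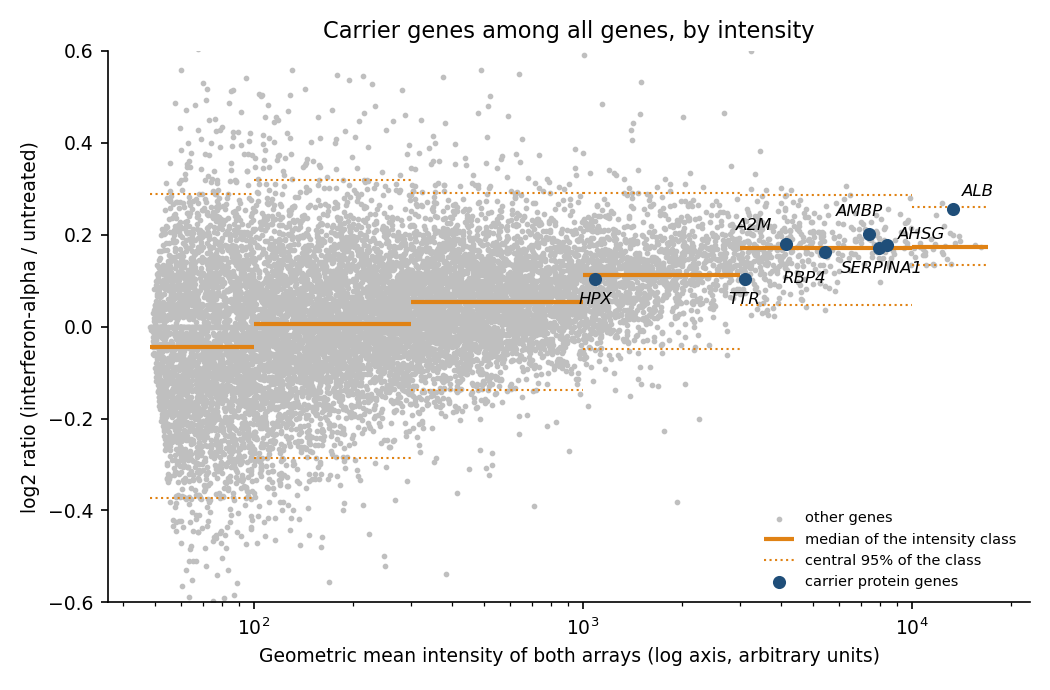
Each gene above the floor on both arrays by its geometric mean intensity (log axis, arbitrary units) and its log2 ratio with the deposited scaling; the 83 genes beyond 0.6 in either direction are outside the plot. Most carriers (blue) sit near the median of their intensity class (orange lines), which increases from -0.04 in the dimmest class to 0.17 in the brightest, whereas ALB is near the upper end of its class and TTR (0.10) lies in the lower part of its class.

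The sign of the carrier ratios changed with the scaling. After quantile scaling 3 of the 8 were above 0, 4 below and AMBP at 0, and they ran from -0.07 (TTR) to 0.08 (ALB). After lowess scaling 4 were above 0 and 4 below, all between -0.04 (TTR) and 0.04 (ALB). The 18 probe sets of the hybridisation controls, which are added to the sample before hybridisation, had log2 ratios from 0.14 to 0.56 (median 0.43). Centring on them put all 8 carriers below 0, from -0.32 (TTR and HPX) to -0.17 (ALB), and the median of all counted genes to -0.38. In each of the main and these 3 scalings ALB had the highest ratio of the 8 and TTR the lowest, nearly level with HPX in the main one. Centring shifts all 8 by the same amount and so keeps the main order. The order also depended on the probe sets used. With the median over probe sets AHSG was highest (0.21), ALB had 0.16 and RBP4 was lowest (-0.01). With probe sets ending in _x_at or _s_at left out, ALB was the lowest (-0.37).

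No carrier gene was at least 2-fold different, and 0 of 8 was at least 25% higher or 20% lower with the deposited scaling. Of all counted genes, a 2-fold higher value was reached by 0.43% and a 2-fold lower one by 0%. A 25% higher value was reached by 2.12% and a 20% lower one by 1.89%. A count of 0 among 8 genes is near those shares. Of the 17 probe sets above the floor, 15 had ratios above 0 against 59.6% of all such probe sets, and 0 were at least 25% higher against 2.57%. The share above 0 depended on brightness, and 11 of the 17 had untreated intensities of 1000 or more. Of all such probe sets it was 54.3% at mean intensities from 100 to 300 and 72.3% from 300 to 1000. From 1000 to 3000 it was 92.6%, and above that 100%.

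**Figure D4:**
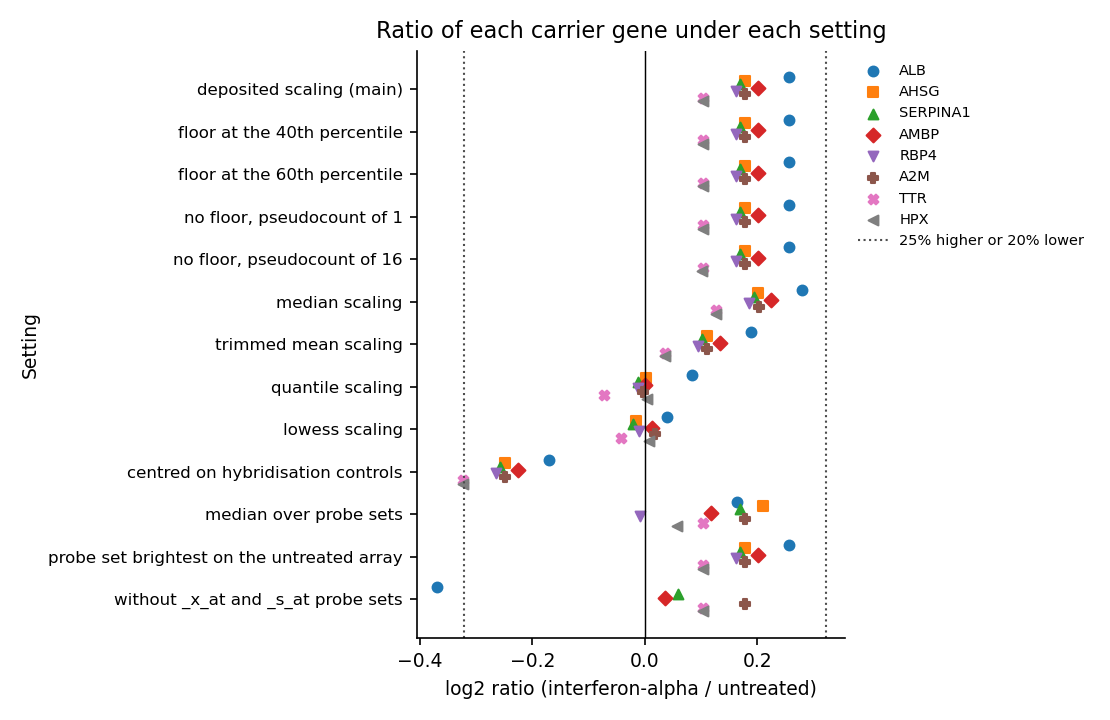
The log2 ratio of each carrier gene (symbols) under the main setting and each of the 12 alternatives, with 0 as a solid line and 25% higher or 20% lower as dotted lines. The ratios gather around 0 after quantile and lowess scaling, are all below 0 when centred on the hybridisation controls, and ALB moves to -0.37 when probe sets ending in _x_at or _s_at are left out.

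The other plasma carriers, a list of 28 genes without the 10, had higher ratios among its brightest genes than among most of its dimmest, with a wide spread between. Of 27 with a named probe set, 20 were counted. Of these 20, 12 had ratios above 0 with the deposited scaling (against 58.5% of all counted genes) and 0 passed either threshold. Their median log2 ratio was 0.08, against 0.17 in the 8 carriers and 0.03 in all counted genes. The 5 with untreated intensities of 3000 or more (AFP, TF, ITIH2, ORM1 and APOH) had ratios from 0.13 to 0.22, whereas 5 of the 7 below 300 and above the floor on both arrays had ratios below 0. The 7 in between ran from -0.11 (SERPINA6) to 0.27 (SERPING1, 1929 untreated), which was the highest ratio of the list and above those of the 5 brightest genes, and KNG1 (1164) had -0.01. ORM1, an acute-phase lipocalin that binds basic drugs, had 3780 and 4182, and APOH, a phospholipid-binding protein, 3291 and 3598. Another APOH probe set had a log2 ratio of -0.20, and the 3 of TF ran from -0.06 to 0.24. Among hormone carriers, the cortisol-binding globulin gene SERPINA6 had 584.7 and 540.4 (-0.11), the sex hormone carrier gene SHBG 99.3 and 98.3 (-0.01), and the thyroxine carrier gene SERPINA7 was below the floor at 36.5 and 39.2. In the list's lowest place was the antichymotrypsin gene SERPINA3, at 54.0 and 48.4.

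Genes that fold and export secreted proteins had ratios close to those of the carriers. All 18 of the secretory pathway list were counted, 17 had ratios above 0 with the deposited scaling, 0 passed either threshold and the median was 0.16. Ratios of all genes also increased with brightness. Their median was 0.05 (71.4% above 0) at mean intensities from 300 to 1000 and 0.11 (92.0%) from 1000 to 3000. From 3000 to 10000 it was 0.17 (100%). A link between this list and the carriers was not tested. P4HB, the disulfide isomerase, was the brightest at 5266 and 5597 (0.09). TMED2, a cargo receptor of early secretory vesicles, had the highest ratio at 2078 and 2446 (0.24). The chaperone gene CALR had the lowest at 1571 and 1440 (-0.13), and its 3 probe sets ran from -0.17 to -0.12.

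Of the receptors that take up or recycle the carriers, 11 of 14 named genes were counted. In this list 7 had ratios above 0 with the deposited scaling, against 58.5% of all counted genes, and 0 passed either threshold. FCGRT, the neonatal Fc receptor that recycles albumin, had 676.2 and 682.9 (0.01). LRP1, which clears A2M bound to proteases, had 390.7 and 367.7 (-0.09). ITGAV, a chain of the vitronectin receptors, had 1224 and 1320 (0.11), while ITGB3, which pairs with it, had 60.7 and 54.4 (-0.16). The transferrin receptor gene TFRC was the brightest of the list at 5515 and 6443 (0.22), and ASGR2, a chain of the asialoglycoprotein receptor, had the highest ratio at 3856 and 4524 (0.23). CUBN and LRP2, the endocytic receptors of kidney tubules, did not reach the floor, nor did the hemoglobin-haptoglobin receptor gene CD163.

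In the list of liver transcription factors, 15 of 19 had a named probe set, all 15 were counted, 13 had ratios above 0 with the deposited scaling and 0 passed either threshold. CEBPA was the brightest at 4540 and 4878 (0.10), and CEBPB had 2823 and 3261 (0.21). FOXA1 had 307.7 and 328.8 (0.10), FOXA2 886.8 and 951.5 (0.10) and FOXA3 1084 and 1099 (0.02). PROX1 had the highest ratio (842.1 and 996.4, 0.24) and the clock-controlled factor DBP the lowest (106.3 and 89.2, -0.25). Probe sets of these genes disagreed: the 4 of PROX1 above the floor on both arrays ran from -0.06 to 0.31. The 2 of DBP had -0.25 and -0.0066. Those of FOXA1 ran from 0.10 to 0.31 and those of FOXA2 from -0.11 to 0.10. The median of the list was 0.10.

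**Figure D5:**
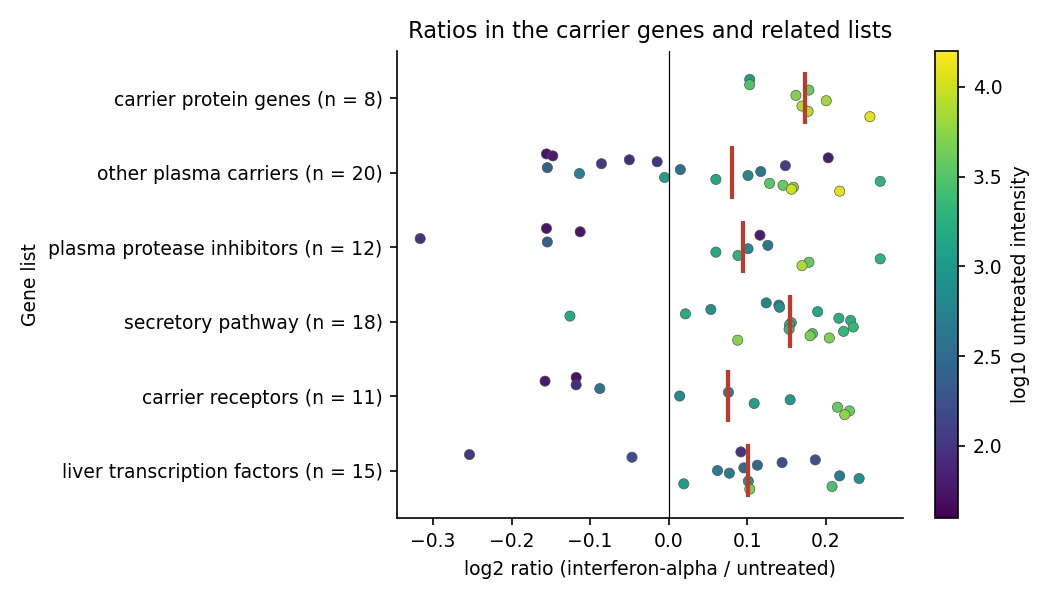
The log2 ratio of each counted gene, with the deposited scaling, in the 8 carriers and 5 related lists, coloured by log10 untreated intensity, with the median of each list as a red bar. Medians run from 0.08 in carrier receptors and other plasma carriers to 0.17 in the carriers, and the genes below 0 are mostly dim; the protease inhibitor list includes SERPINA1 and A2M.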

How the data were processed

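The authors deposited 1 linear intensity per probe set and array. GCOS, Affymetrix's scanner software, was used per the submitters' processing notes; its version, background correction, probe set summary and scaling between arrays were not given in the sources used here. No scanner files or detection calls were used. The table holds 54675 probe sets, 62 of them controls. Of the rest, the platform annotation gives 1 gene to 41091, several to 1801 and none to 11721, and symbols were updated through the gene ID with a RefSeq table.

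The floor (48.5) was the median over both arrays together, without controls. Lower values were raised to it before log2. Each gene was read on its brightest probe set by mean log2 intensity, and a gene was counted if that probe set was above the floor on at least 1 array. Other probe sets are given as measured. Thresholds were a ratio 25% higher or 20% lower, which are the same fold, and 2-fold. The named genes are all members with every probe set, ISG15, IFIT1 and MX1, and from each related list the brightest, the highest and lowest ratios and any gene past the smaller threshold; further genes of the lists were named for their role, after their values were seen. Motifs were searched on both strands. The members and lists were chosen with earlier results of these data known. Alternatives were other floors, pseudocounts of 1 and 16, 5 other scalings and 3 other choices of probe set. Python 3.11.15 with pandas 2.3.3 and statsmodels 0.14.6 was used, and the procedure was tested on simulated data. In those data the ratio did not depend on brightness, so the simulation does not bear on the choice of scaling. The number of arrays limits the precision.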

Additional observations from a re-analysis of the deposited data

How the results depend on the processing

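No paired analysis was possible because there is 1 array per condition. Each of the 12 alternatives was run; a value was taken as moved when it changed by more than the robust SD of all genes' log2 ratios (0.13), which is not a replicate error. The median log2 ratio of the carriers was 0.17, and it moved to -0.0021 with quantile scaling, -0.0018 with lowess scaling and -0.25 when centred on the hybridisation controls. Under the other 9 it lay between 0.08 (without _x_at and _s_at probe sets, which left 6 of the 8 genes) and 0.20 (median scaling). The count at least 20% lower went from 0 to 2 with the hybridisation controls (TTR and HPX) and to 1 without _x_at and _s_at probe sets (ALB). The counts at least 25% higher, and past 2-fold either way, were 0 under all 12. With trimmed mean scaling all 8 genes stayed above 0, from 0.04 to 0.19. Of 94 values for single genes, 69 moved by less than that SD and 25 by more. Other floors, pseudocounts and the choice by untreated brightness could hardly change genes this bright. The 69 are therefore no measure of stability. HPX went from 0.10 to 0.0042 with quantile scaling and still counted among them, since its main ratio is smaller than that SD.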

Other observations

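Some deposited intensities share the same decimals on both arrays, carriers included. After division by 0.25, and rounding the remainder to 4 decimals, 2056 probe sets on the untreated array and 2030 on the interferon-alpha array left the remainder 0.0662, where an even spread of remainders would give about 21.8 per array. The same probe sets were mostly involved, since 1967 had this remainder on both. Of the carriers, 3 probe sets did so: AHSG 204551_s_at, AMBP 205477_s_at and SERPINA1 202833_s_at, which differed between the arrays by exactly 1035, 1032.5 and 790.5 to that precision. Counted separately, 2361 probe sets (4.32%) had identical values on both arrays, and 0 of the 19 carrier probe sets was among them. How these values arose is not given in the sources used here.

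SOX9, a progenitor and cholangiocyte factor, was the only gene at least 25% higher in the marker lists examined beside the carriers, with 1221 and 1659 (log2 ratio 0.44, and 0.22 on its other probe set), and VWF, an endothelial marker near the floor at 67.1 and 49.99, was the only one at least 20% lower. Both calls use the deposited scaling.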
